A study of Mus musculus with 16 samples.

Results

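Methylation was followed along the 4 Hox clusters of the mouse genome. Members were all CpG sites that carried at least 10 reads in each of the 16 libraries and lay in 1 of 4 windows on GRCm39, each set by fixed coordinates around a cluster. From the first to the last member they spanned chr6:52129800-52243614 in Hoxa, chr11:96080957-96257330 in Hoxb, chr15:102829085-102943250 in Hoxc and chr2:74486383-74592909 in Hoxd. The windows held 1681 of the 873038 sites common to all libraries, with 476 in Hoxa, 531 in Hoxb, 284 in Hoxc and 390 in Hoxd. Those sites fell into 169 tiles of 1 kb, and the 131 tiles with at least 3 of them were tested, out of 94337 tested tiles in the genome. The other 38 tiles held 52 member sites and were given no test.

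The method was reduced representation bisulfite sequencing (RRBS), in which MspI-cut DNA is treated with bisulfite so that unmethylated cytosines are read as thymine. D0 was mouse embryonic fibroblasts (MEFs) from 129XOG2 embryos of E13.5, and OG2 mice carry an Oct4-GFP transgene, so all groups share it. D2, D4, D6, D8, D10 and D12 were the cells after that number of days in chemical reprogramming medium. The iPSC group was induced pluripotent stem cells kept on feeder cells in mouse embryonic stem cell medium with LIF, CHIR99021 (a GSK3 inhibitor) and PD0325901 (a MEK inhibitor). The labels name no culture, passage or number of lines for the iPSCs, and do not say whether feeder cells were removed before DNA was extracted. Each group had 2 libraries, which no label ties to separate cultures or embryos. P-values therefore cover the spread between libraries, and that spread may be technical. The listed sites of a library had a median coverage of 18 to 27 reads, and the reads over the 131 Hox tiles ranged from 61307 to 141577 per library.

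Hox genes encode homeodomain transcription factors that give cells their position along the body axis. Within a cluster they lie in the order in which they act from anterior to posterior, and fibroblasts keep a set of active and silent Hox genes from the site they came from. In pluripotent cells the clusters are silent and carry Polycomb marks, and their CpG islands are generally kept free of DNA methylation.

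The promoters with measured CpGs are shown first, since they say which gene starts the sites lie at. RefSeq promoter sequences of 300 bases (250 before the start of transcription and 50 after it, GRCm38.p6 table) were placed in the windows by the spacing of their CpGs, without a genome of the files' build. A sequence counted as placed when every listed CpG under it fell on a CpG of the sequence, at least 6 did, and the next best place had at least 3 fewer. Of 45 sequences searched, 14 were placed, and the spacing between placed starts differed from that in the RefSeq table by at most 6 bases in any cluster. Of the placed sequences, 9 held member sites. The 5 below were picked after their values were seen and are described next. The other 4 were 3 starts of Gm30134, with D0 means of 1.97% to 3.46%, and Hoxc4, with 1 member site, 11 to 39 reads and a D0 mean of 31.6%. The sequences are written 5′ to 3′ on the gene's strand, with the CpGs that are member sites in capitals.

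5730596B20Rik: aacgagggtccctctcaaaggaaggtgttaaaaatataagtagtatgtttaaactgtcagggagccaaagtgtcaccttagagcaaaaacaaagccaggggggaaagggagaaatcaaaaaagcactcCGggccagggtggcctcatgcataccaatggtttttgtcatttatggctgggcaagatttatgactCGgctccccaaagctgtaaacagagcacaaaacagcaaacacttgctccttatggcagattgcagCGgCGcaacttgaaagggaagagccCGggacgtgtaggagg

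Hoxa11os: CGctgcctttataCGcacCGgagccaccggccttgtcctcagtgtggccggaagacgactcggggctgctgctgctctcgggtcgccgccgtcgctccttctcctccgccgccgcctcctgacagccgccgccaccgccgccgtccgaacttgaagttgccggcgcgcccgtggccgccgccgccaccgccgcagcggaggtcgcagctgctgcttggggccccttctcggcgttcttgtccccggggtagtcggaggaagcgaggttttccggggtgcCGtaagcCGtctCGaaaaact

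Hoxa13: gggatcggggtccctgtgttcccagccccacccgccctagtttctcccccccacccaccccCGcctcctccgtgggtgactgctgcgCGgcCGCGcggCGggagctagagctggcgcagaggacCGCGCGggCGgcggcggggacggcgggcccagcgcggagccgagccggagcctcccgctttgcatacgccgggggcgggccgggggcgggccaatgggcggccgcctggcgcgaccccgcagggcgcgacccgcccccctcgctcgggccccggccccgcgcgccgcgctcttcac

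Gm29905: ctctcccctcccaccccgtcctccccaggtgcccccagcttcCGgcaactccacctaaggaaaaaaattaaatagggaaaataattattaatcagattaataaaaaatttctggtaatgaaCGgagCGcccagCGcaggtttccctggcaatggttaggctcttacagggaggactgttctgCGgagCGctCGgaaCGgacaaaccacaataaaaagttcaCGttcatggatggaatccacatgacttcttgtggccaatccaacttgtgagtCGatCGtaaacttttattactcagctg

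Hoxd12: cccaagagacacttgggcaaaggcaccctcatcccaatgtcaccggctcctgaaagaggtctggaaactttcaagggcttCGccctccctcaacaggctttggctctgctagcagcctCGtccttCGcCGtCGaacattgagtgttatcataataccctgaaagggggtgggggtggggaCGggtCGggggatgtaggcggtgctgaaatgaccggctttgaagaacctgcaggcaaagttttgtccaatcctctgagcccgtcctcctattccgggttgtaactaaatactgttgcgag

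In RRBS the DNA is cut at MspI sites, whose recognition sequence is CCGG and reads the same on both strands. The distance of the measured CpGs from such sites was not computed. The 5 sequences hold 2, 6, 4, 1 and 3 copies of CCGG in the order shown, and 52.8% of the 32851 promoters of this length in the table hold at least 1.

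The promoter of 5730596B20Rik was lower in all libraries after D0 than in the D0 libraries. It belongs to a long non-coding RNA gene that the RefSeq table lists just before Hoxa4, and was placed at chr6:52153885-52154184 on the plus strand. Its 9 member sites, covered by 230 to 654 reads per library, were methylated at 25.8% and 21.2% in the D0 libraries and at 9.35% and 7.76% in the D2 libraries. The level then stayed between 1.10% and 9.43% in all later libraries of the course and was 7.65% and 4.66% in iPSCs. At D2 the difference did not pass the test (-15.0 points, edgeR adjusted p = 0.475). The same 9 sites form the tile chr6:52154001-52155000, which was lower at D6 (edgeR adjusted p = 0.00880), D12 (edgeR adjusted p = 0.000382) and in iPSCs (edgeR adjusted p = 0.00833) than at D0. The iPSC call was lost without iPSC replicate 2 (edgeR adjusted p = 0.0741) and without D0 replicate 1 (edgeR adjusted p = 0.0713), with differences of -15.9 and -15.0 points against -17.4 with all libraries.

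The promoter of Hoxa11os, an RNA transcribed antisense to Hoxa11, was low at D0 and highest in the middle of the course. It was placed at chr6:52221973-52222272 on the plus strand. Its 6 member sites were methylated at 4.81% and 5.16% in the D0 libraries, 10.5% and 6.59% at D6, 23.0% and 4.43% at D8, and 1.26% and 1.47% in iPSCs. The D8 mean rested on replicate 1. The promoter crosses a tile border, and only its member sites from 52222001 on lie in the tile chr6:52222001-52223000. That tile has 14 member sites, so its tests do not cover the promoter's 6 sites as a set. Its libraries were at 1.09% and 0.897% at D0, 18.6% and 11.5% at D6, and 35.8% and 3.94% at D8. They were at 11.4% and 11.3% at D10, 3.66% and 5.45% at D12, and 0% and 4.56% in iPSCs. All 6 libraries of D6, D8 and D10 lay above both D0 libraries, with edgeR adjusted p = 0.0455, 0.0209 and 0.0220 against D0, and at D12 it was 0.149. It was the only Hox tile called higher at D6 and at D8, and 0 Hox tiles were called higher at D6 when any of the 4 libraries was left out, or at D8 without D8 replicate 1 or without D0 replicate 1. This tile was singled out after its values were seen.

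The other 3 promoters shown were under 20% at D0 and in iPSCs. The Hoxa13 promoter (chr6:52237816-52238115, minus strand), at the gene of the most posterior Hoxa protein, had 9 member sites, at 3.10% and 10.3% in D0 and 0% in both iPSC libraries. Single libraries reached 37.8% at D6 and 28.6% at D10 while their partners were at 3.66% and 0%. The Gm29905 promoter (chr15:102906550-102906849, minus strand) belongs to a long non-coding RNA listed between Hoxc8 and Hoxc6. Its 22 member sites were at 5.34% and 12.2% in D0, 20.1% and 21.0% at D4, and 5.15% and 6.15% in iPSCs. The Hoxd12 promoter (chr2:74505107-74505406, plus strand), at a posterior Hoxd gene, had 7 member sites at 17.1% and 12.7% in D0, 0% and 5.45% at D8, 10.2% and 0% at D12, and 15.7% and 14.6% in iPSCs. These promoter levels were not tested on their own.

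As a whole the clusters were poorly methylated at every stage. Pooled over reads, Hoxa was methylated at 11.3% ± 0.895 (SD, n = 2) at D0, Hoxb at 16.8% ± 0.481, Hoxc at 13.6% ± 0.858 and Hoxd at 16.5% ± 0.600, while all common sites together stood at 55.9% ± 0.179. The lowest point was D10 for Hoxa (5.55% ± 0.187), Hoxc (7.03% ± 0.384) and Hoxd (7.56% ± 0.0532), and D12 for Hoxb (7.95% ± 0.154). At D12 Hoxa was at 7.51% ± 0.115, Hoxc at 8.17% ± 1.05 and Hoxd at 8.63% ± 0.201, and all common sites had come down to 16.9% ± 0.0529. A level is an average over the cells of a library, so a partial level in all cells and a full level in some of them, feeder cells included, cannot be told apart.

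Pooled over reads, the share of the D0 level that was left was near that of the genome at D10. At D8 and D12 it was above that of the genome. At D8 it was 75.6% in Hoxa, 67.3% in Hoxb, 75.1% in Hoxc and 68.1% in Hoxd, against 57.7% for all common sites. At D10 it was 49.1% in Hoxa, 49.4% in Hoxb, 51.6% in Hoxc and 45.8% in Hoxd, against 45.7% for all common sites. At D12 Hoxa kept 66.3% of its D0 level, Hoxc 60.0%, Hoxd 52.3% and Hoxb 47.4%, against 30.2% for all common sites. With each site given equal weight, the share at D10 ran from 53.7% (Hoxd) to 62.6% (Hoxb), against 48.8% for all common sites. At D12 it then ran from 65.8% (Hoxd) to 81.6% (Hoxa), against 34.9%. For the cluster levels the nearness at D10 was thus seen with reads pooled and not with sites weighted equally. The differences between these shares were not tested. In each cluster neither D12 library overlapped either D0 library. The smallest p that an exact two-sided permutation test of 2 against 2 libraries allows is 0.333, and that was its value for D12 against D0 in all 4 clusters. Among tiles that stayed under 15% in each library, the 4517 outside the Hox windows averaged between 3.33% and 5.05% in each group, and the 25 in the Hox windows between 3.80% and 5.94%. The part of such residual levels in the share kept was not tested.

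**Figure D1:**
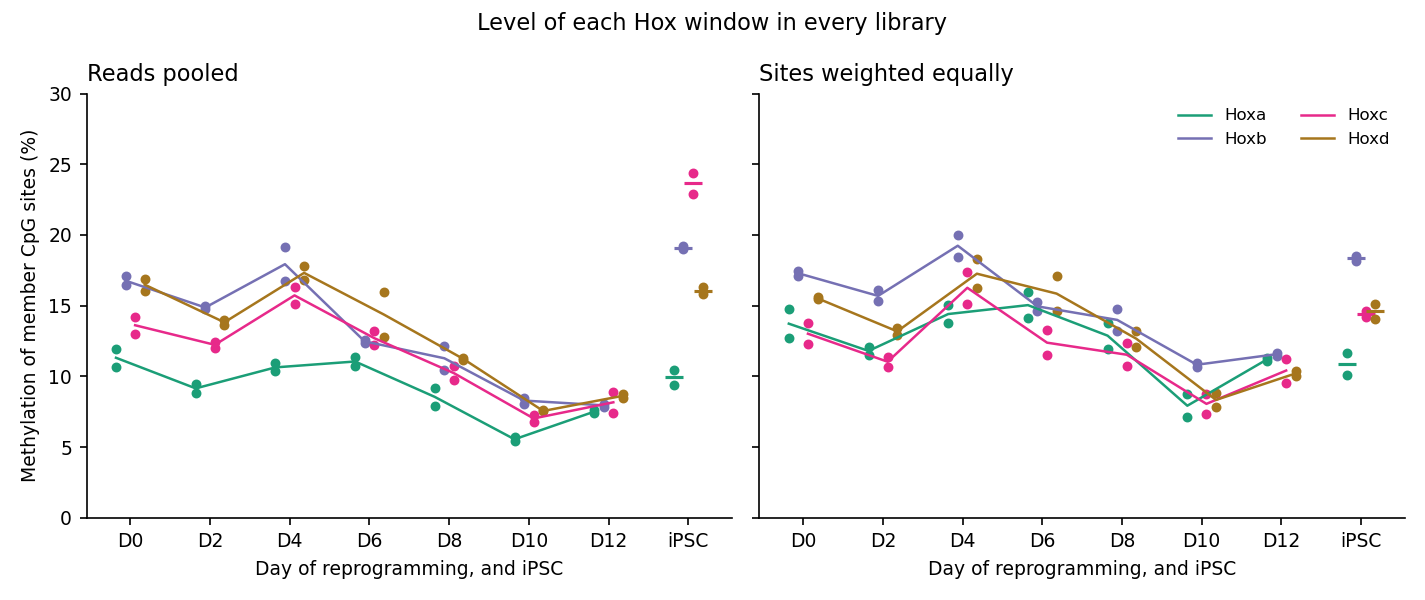
Methylation (%) of the member sites of each Hox window, by day of reprogramming and in iPSC. Points are the 2 libraries of a group, lines and bars their means, with reads pooled over sites (left) and each site given equal weight (right). Each window is lowest at D10 or D12, and the high iPSC level of Hoxc (23.6%) is seen in the pooled values only.

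In iPSCs the 4 clusters ended at different levels when reads were pooled. Hoxc stood at 23.6% ± 1.02 against 13.6% at D0, Hoxb at 19.1% ± 0.185 against 16.8%, Hoxd at 16.1% ± 0.314 against 16.5%, and Hoxa at 9.94% ± 0.743 against 11.3%. Both iPSC libraries lay outside the range of the D0 libraries in Hoxa, Hoxb and Hoxc (exact two-sided permutation p = 0.333), and they overlapped with D0 in Hoxd (exact p = 0.667). The Hoxc difference of 10.0 ± 0.944 points (SE) rested on 1 tile, chr15:102854001-102855000, and was -0.484 points without it. The Hoxb difference of 2.34 ± 0.364 points was 0.291 without the tile chr11:96168001-96169000, and the Hoxa difference of -1.38 ± 0.823 points was -0.127 without chr6:52179001-52180000. With each site given equal weight, Hoxc differed by 1.38 points between iPSC and D0.

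The Hox tiles sat at the low end of the genome at D0. Of 131 tiles, 98 (74.8%) were under 20% at D0, 32 were at 20% to 80% and 1 was above 80%, whereas 15.2% of all tested tiles were under 20%. The median Hox tile was at 11.9% and the median of all tiles at 65.7%. Hox tiles also held more CpGs, with a median of 14 listed per tile against 6 over all tiles. D0 levels were not compared between tiles of like CpG number, so the low level cannot be called particular to the Hox clusters. In 64 Hox tiles (48.9%) the mean stayed under 20% in all 8 groups, against 10.9% of all tiles. By cluster these were 18 of 30 tiles in Hoxa, 24 of 44 in Hoxb, 15 of 29 in Hoxd and 7 of 28 in Hoxc. The threshold of 20% divides a continuous range: just inside it lay Hoxc and Hoxd tiles at 19.1% and 18.8%, and just outside it Hoxb and Hoxa tiles at 20.0% and 20.3%.

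**Figure D2:**
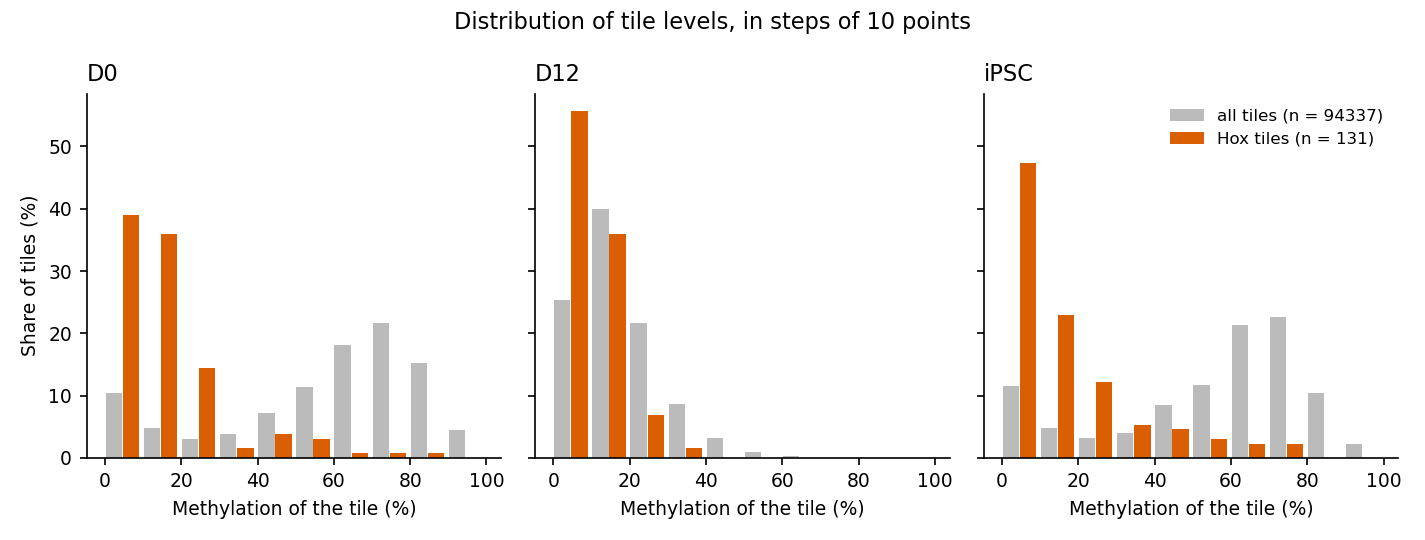
Share of tiles (%) by methylation level in steps of 10 points, for all 94337 tested tiles (grey) and the 131 Hox tiles (orange) at D0, D12 and in iPSC. At D0 and in iPSC most Hox tiles lie under 20% while the genome peaks between 60% and 80%, and at D12 both lie low.

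Of the 33 tiles at 20% or more at D0, 20 had no tested neighbour, 8 had tested neighbours that were all under 20%, and 5 had one at 20% or more. The highest D0 levels in Hoxb were 87.2% ± 1.46 at chr11:96139001-96140000 and 75.5% ± 2.77 at chr11:96122001-96123000, followed by 68.1% ± 1.76 at chr11:96117001-96118000 and 59.0% ± 6.43 at chr11:96099001-96100000. The levels of these 4 tiles include sites far under the other strand of their CpG, which are described with the losses below. These 4 tiles lie at higher coordinates than the placed start of Gm30134, a long non-coding RNA that the RefSeq table lists between Hoxb13 and Hoxb9. None had a tested tile next to it, but untested tiles of 2 common sites each directly before the third and directly after the second were at 57.4% and 43.7% at D0. The untested tile directly after the third, with 1 common site, was at 10.0%. In Hoxa the highest tested tile was at 57.2% ± 2.39 (chr6:52179001-52180000), centred 2.07 kb downstream of the placed start of Hoxa5, a gene for patterning of the neck, chest and lung. The untested tile before it, with 1 common site, was at 60.8%. The next tested Hoxa tile by level was 41.3% ± 2.10 at chr6:52147001-52148000. In Hoxd 2 tiles reached 51.0% ± 1.03 and 50.7% ± 2.44 (chr2:74559001-74560000 and chr2:74578001-74579000), both between the placed starts of Gm38462 and Hoxd1. Hoxc had no tile over 40% at D0, and its 2 highest were 31.5% ± 0.614 (chr15:102938001-102939000) and 30.1% ± 9.99 (chr15:102874001-102875000). The lowest tested tiles were at 0.664% ± 0.939 in Hoxa (chr6:52135001-52136000), 0.935% ± 1.32 in Hoxb (chr11:96163001-96164000), 3.44% ± 3.83 in Hoxc (chr15:102829001-102830000) and 2.75% ± 3.21 in Hoxd (chr2:74488001-74489000).

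**Figure D3:**
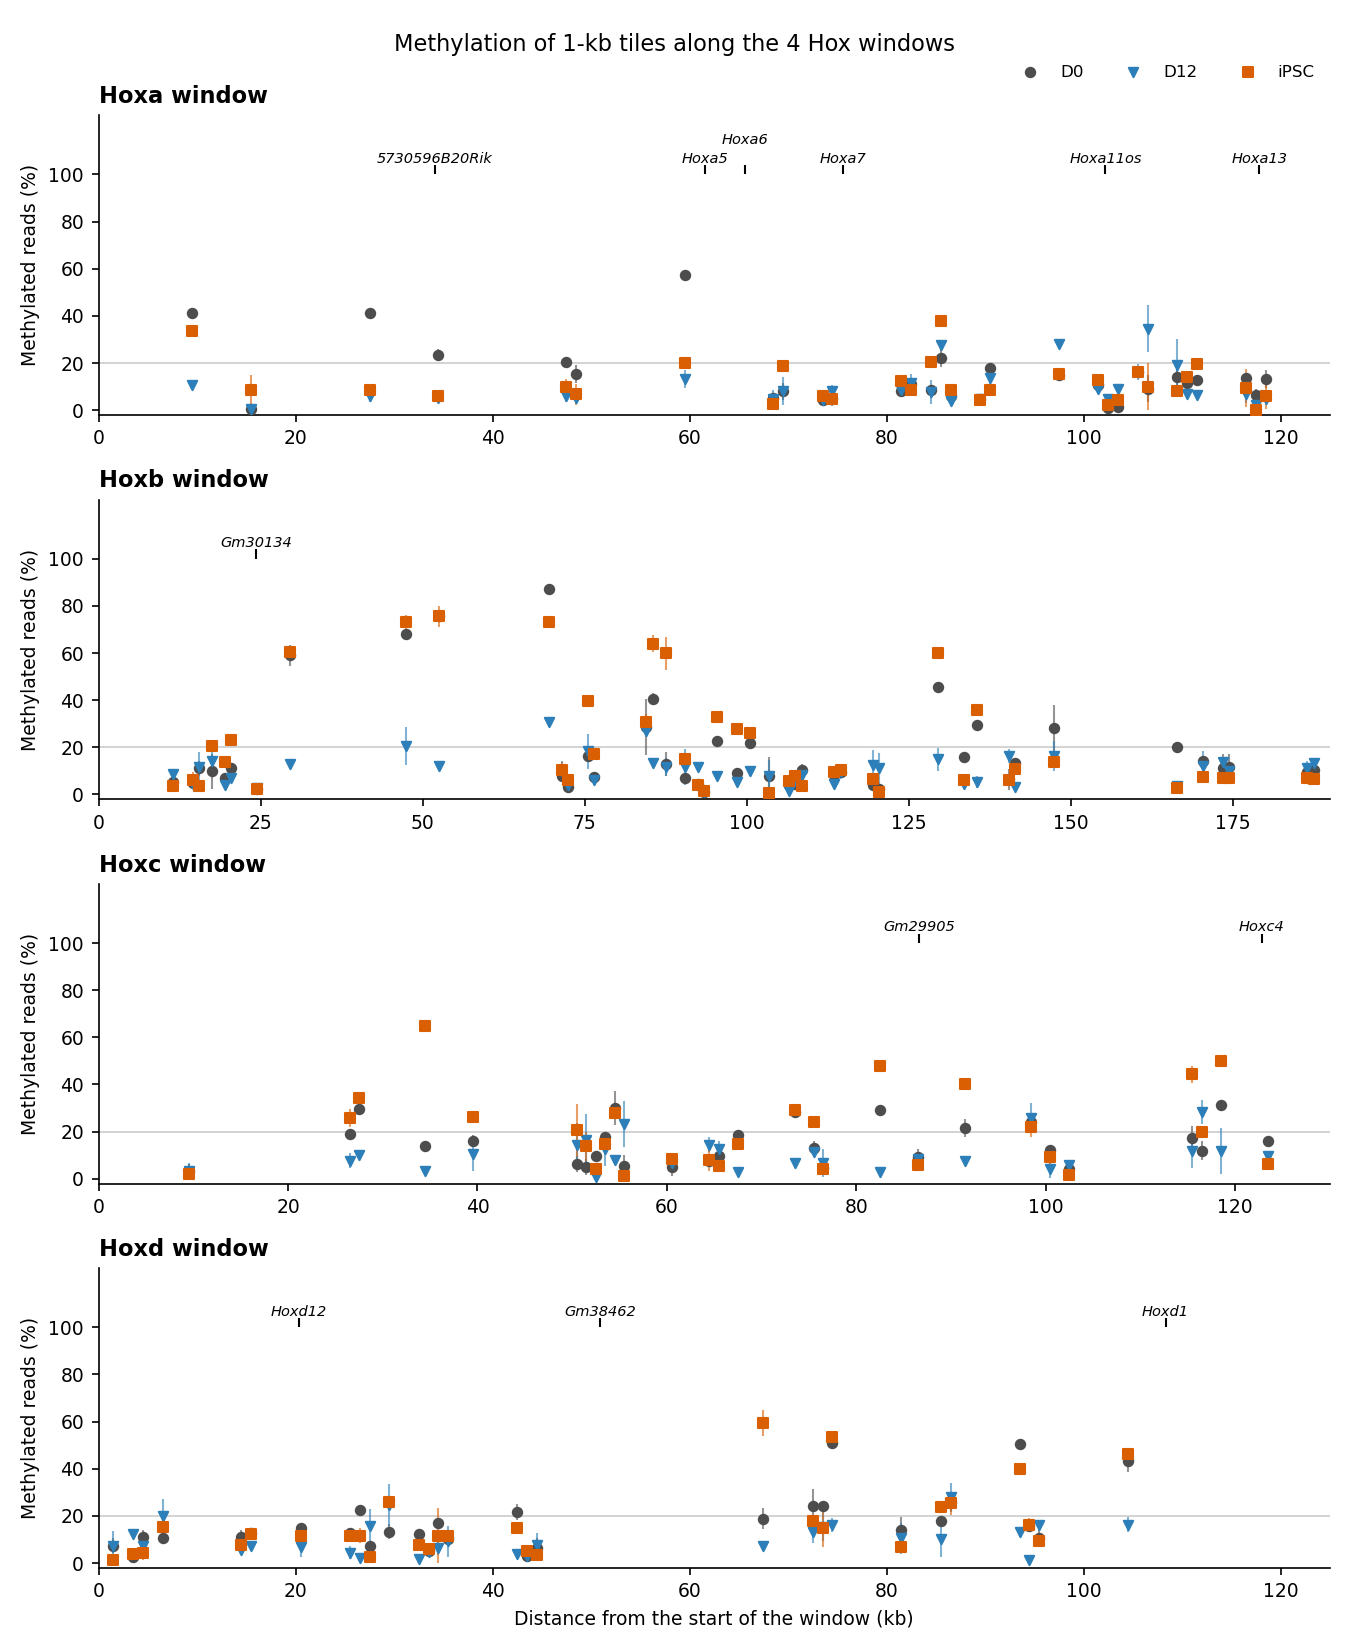
Methylation (%) of each tested Hox tile at D0 (grey circles), D12 (blue triangles) and in iPSC (orange squares) against distance from the window start in kb. Symbols are group means, vertical lines join the 2 libraries, the grey line marks 20%, and ticks mark placed RefSeq starts. At D0, 12 of the 131 tiles are at 40% or more, and at D12 all lie under 40%.

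Loss during the course was first called at D6 in the Hox tiles and was called in 33 of 131 by D12. At D2 and D4 edgeR called 0 of 131 tiles against D0, where 0.0488% and 0.0806% of all tiles were called, and 7 and 14 Hox tiles had an unadjusted p under 0.05, as had 4621 and 5614 of all 94337 tiles. The quasi-binomial model called 0 at D2 and 1 at D4. At D6 edgeR called 1 higher and 3 lower (0.104% and 21.3% of all tiles), at D8 1 higher and 20 lower (0.544% and 72.3%), and at D10 2 higher and 33 lower (0.201% and 81.6%). At D12 it called 0 higher and 33 lower, against 0.649% and 82.7% of all tiles, with an unadjusted p under 0.05 in 42 Hox tiles, while the quasi-binomial model called 4 higher and 34 lower. Of the 33 tiles lower at D12, 26 were also lower at D10 and 17 at D8 and D10. That overlap was not counted over all tiles, so it cannot be called particular to the Hox tiles. By cluster, 12 of 44 Hoxb tiles, 9 of 28 Hoxc tiles, 7 of 29 Hoxd tiles and 5 of 30 Hoxa tiles were lower at D12. In none of the 8 comparisons were 78 Hox tiles called, against 11658 of all 94337 tiles.

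The 3 tiles called lower at D6 are given here after their values were seen. The Hoxd tile chr2:74579001-74580000 was at 16.6% and 14.5% at D0 and at 1.26% and 2.91% at D6 (edgeR adjusted p = 0.0172), and it stood at 16.4% ± 4.09 in iPSCs. The tile before it, chr2:74578001-74579000, was at 52.4% and 48.9% at D0 and still at 56.8% and 55.1% at D6, and was called lower at D10 (21.1% and 25.4%, edgeR adjusted p = 0.000433). The other two were the 5730596B20Rik tile and chr15:102893001-102894000 in Hoxc, at 27.5% and 28.8% at D0 and 16.2% and 16.8% at D6 (edgeR adjusted p = 0.0385). Without D0 replicate 1, 0 tiles were called at D6 in place of 4, without D6 replicate 2 or D0 replicate 2 it was 1, and without D6 replicate 1 it was 2.

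Since a call needs a fall of at least 10 points, the 51 Hox tiles under 10% at D0 could not be called lower. Of the 33 Hox tiles at 20% or more at D0, 26 were lower at D12. Of the 98 under 20%, 7 were lower (7.14%, against 3.85% of all tiles under 20% at D0). Of all 14293 tiles under 20% at D0, 9769 were under 10%, against 51 of the 98 Hox tiles. A larger part of all such tiles could thus not be called lower. The shares were not compared among tiles at 10% to 20%, so the higher Hox share cannot be called particular to the Hox tiles. Among tiles at 20% to 80% at D0, 78.1% of the 32 Hox tiles and 95.8% of all tiles were lower at D12, but the Hox tiles started lower within that range, with a median of 29.0% against 64.6%. Their median share of the D0 level kept at D12 was 31.0%, and over all such tiles it was 25.4%. At D8 those medians were 56.4% and 56.9%, and at D10 40.3% and 39.8%. The 7 Hox tiles at 20% or more that were not lower at D12 had D0 levels of 22.0% to 28.7%.

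The largest losses by D12 were in Hoxb. The tile chr11:96122001-96123000 was at 73.6% and 77.5% at D0, 43.6% and 45.0% at D8, and 13.9% and 10.3% at D12, a difference of -63.4 ± 2.65 points (edgeR adjusted p = 3.23e-06). It has 4 member sites and 72 to 242 reads per library, and 1 of its sites, at 6.61% at D0, lies at least 20 points under the other strand of its CpG; without it the tile was at 98.3% at D0. Next came chr11:96139001-96140000, at 86.1% and 88.2% at D0, 75.7% and 74.5% at D8, and 30.3% and 31.4% at D12 (difference -56.3 ± 1.17 points, edgeR adjusted p = 1.14e-06). That tile kept 86.2% of its D0 level at D8, where the median tile of 80% or more at D0 kept 64.4%. The tile chr11:96117001-96118000 fell from 69.3% and 66.8% to 28.6% and 12.6% (edgeR adjusted p = 3.32e-05), and chr11:96099001-96100000 from 63.5% and 54.4% to 13.8% and 12.4% (edgeR adjusted p = 2.26e-06). Such strand gaps were also present at D0 in the other Hoxb tiles named here. They were 17.5% against 97.9% in chr11:96139001-96140000 and 4.05% against 90.0% in chr11:96117001-96118000. In chr11:96099001-96100000 they were 7.42% against 89.7% and 6.41% against 77.4%, and without such sites its loss was -56.0 points in place of -45.9. The fifth was the tile by Hoxa5, from 58.9% and 55.5% to 17.2% and 9.33% (edgeR adjusted p = 1.96e-05). In each of the 5, both D12 libraries lay under both D0 libraries.

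Most of the tiles that lost methylation stood higher again in iPSCs. Between iPSC and D12, 35 Hox tiles were higher and 2 lower, where 79.8% and 1.48% of all tiles were called. Of the 33 tiles lower at D12 than at D0, 25 were higher in iPSCs than at D12. Against D0, 24 of the 33 were not called in iPSCs, 6 were lower and 3 were higher. The same shares were not counted over all tiles lower at D12. Among tiles at 20% to 80% at D0, 59.4% of the 32 Hox tiles and 92.5% of all tiles were higher in iPSCs than at D12. Against D0, 15.6% of those Hox tiles were lower in iPSCs and 3.13% higher, with 7.52% and 4.98% of all such tiles. The tile chr11:96122001-96123000 was at 75.6% ± 6.29 in iPSCs, chr11:96117001-96118000 at 70.1% and 76.1%, and chr11:96099001-96100000 at 60.9% and 60.3%, so that the means of these 3 differed from D0 by 0.0400, 5.06 and 1.61 points. The tests were against D12 and D0 in turn and share those libraries.

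Comparing iPSC with D0 directly, 6 Hox tiles were higher and 6 lower, which is 4.58% each, against 4.02% and 9.42% of all tiles. The gains were 4 tiles in Hoxb, 1 in Hoxc and 1 in Hoxd, and the losses 3 in Hoxa, 2 in Hoxb and 1 in Hoxd. Without D0 replicate 1 the total was 7 in place of 12, and with a minimum difference of 25 points it was 5. The balance of gains and losses differed between settings. There were 11 higher and 6 lower in the quasi-binomial model, 10 and 6 with merged strands, and 10 and 5 with the 2 groups fitted alone. The counts were 4 and 5 with a minimum coverage of 20, and 8 and 9 with sites common to the 2 groups only. They were 5 and 6 with at least 1 common site per tile, and 6 and 6 with the replicate block. A further 119 tiles were not called, and their difference may be below what 2 libraries a group can show.

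The largest gain was in Hoxc. The tile chr15:102854001-102855000 was at 14.9% and 13.2% at D0 and at 22.3% or less in each library of the course, fell to 5.19% and 1.66% at D12, and stood at 65.2% and 64.3% in iPSCs. The difference from D0 was 50.8 ± 0.952 points (edgeR adjusted p = 0.00113), and that from D12 61.3 ± 1.82 points (edgeR adjusted p = 2.37e-06). Its 7 member sites span 151 bases (102854150 to 102854300), are covered by 926 to 3573 reads per library, and all 7 were higher in iPSCs than at D0. Single sites ranged from 3.73% to 26.9% at D0 and from 9.51% to 82.1% in iPSCs. It lies 34.5 kb into the window, on the side where the RefSeq table lists Hoxc13, Hoxc12 and Hotair, and no placed start lies between it and the window start. Its loss at D12 against D0 was 10.6 points, and without D12 replicate 2 or D0 replicate 1 it came to -8.83 and -9.75, under the 10 points asked for.

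In Hoxb the 4 gained tiles lay between 75.5 and 98.5 kb into the window. The tile chr11:96157001-96158000 was at 18.1% and 7.81% at D0 and 52.9% and 66.7% in iPSCs (difference 46.8 ± 8.59 points, edgeR adjusted p = 0.00391), with 4 sites and 65 to 205 reads per library. The tile chr11:96155001-96156000 was at 43.0% and 38.3% at D0, fell to 11.4% and 15.2% at D12 and reached 60.5% and 67.4% in iPSCs (edgeR adjusted p = 0.0154 against D0). All 12 of its sites were higher in iPSCs than at D0. The tile chr11:96145001-96146000 was at 16.3% and 16.1% at D0, 10.9% and 25.8% at D12, and 41.4% and 37.7% in iPSCs (edgeR adjusted p = 0.0484), again with all 12 sites higher. The smallest of the 6 gains, chr11:96168001-96169000, rose from 9.12% and 9.46% to 28.7% and 26.7% (edgeR adjusted p = 0.00112) over 30 sites and 1511 to 5174 reads. Of 10 tested tiles in that stretch the other 6 were not called and ranged from 1.28% to 32.7% in iPSCs, so that tiles with and without a call are mixed there. The calls at chr11:96145001-96146000 and chr11:96155001-96156000 were lost when single libraries were left out, with edgeR adjusted p of up to 0.203 and 0.127.

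The gain in Hoxd was at chr2:74552001-74553000, between the placed starts of Gm38462 and Hoxd1. It was at 23.2% and 14.4% at D0, 8.07% and 6.45% at D12, and 53.7% and 65.0% in iPSCs, a difference of 40.6 ± 7.16 points from D0 (edgeR adjusted p = 0.000869). All 10 member sites were higher in iPSCs than at D0. Its loss at D12 was 11.5 points (edgeR adjusted p = 0.00343) and came to -7.12 without D0 replicate 1, under the 10 points asked for. In this tile and the Hoxc tile the 2 iPSC libraries lay above each of the 14 libraries of D0 to D12.

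**Figure D4:**
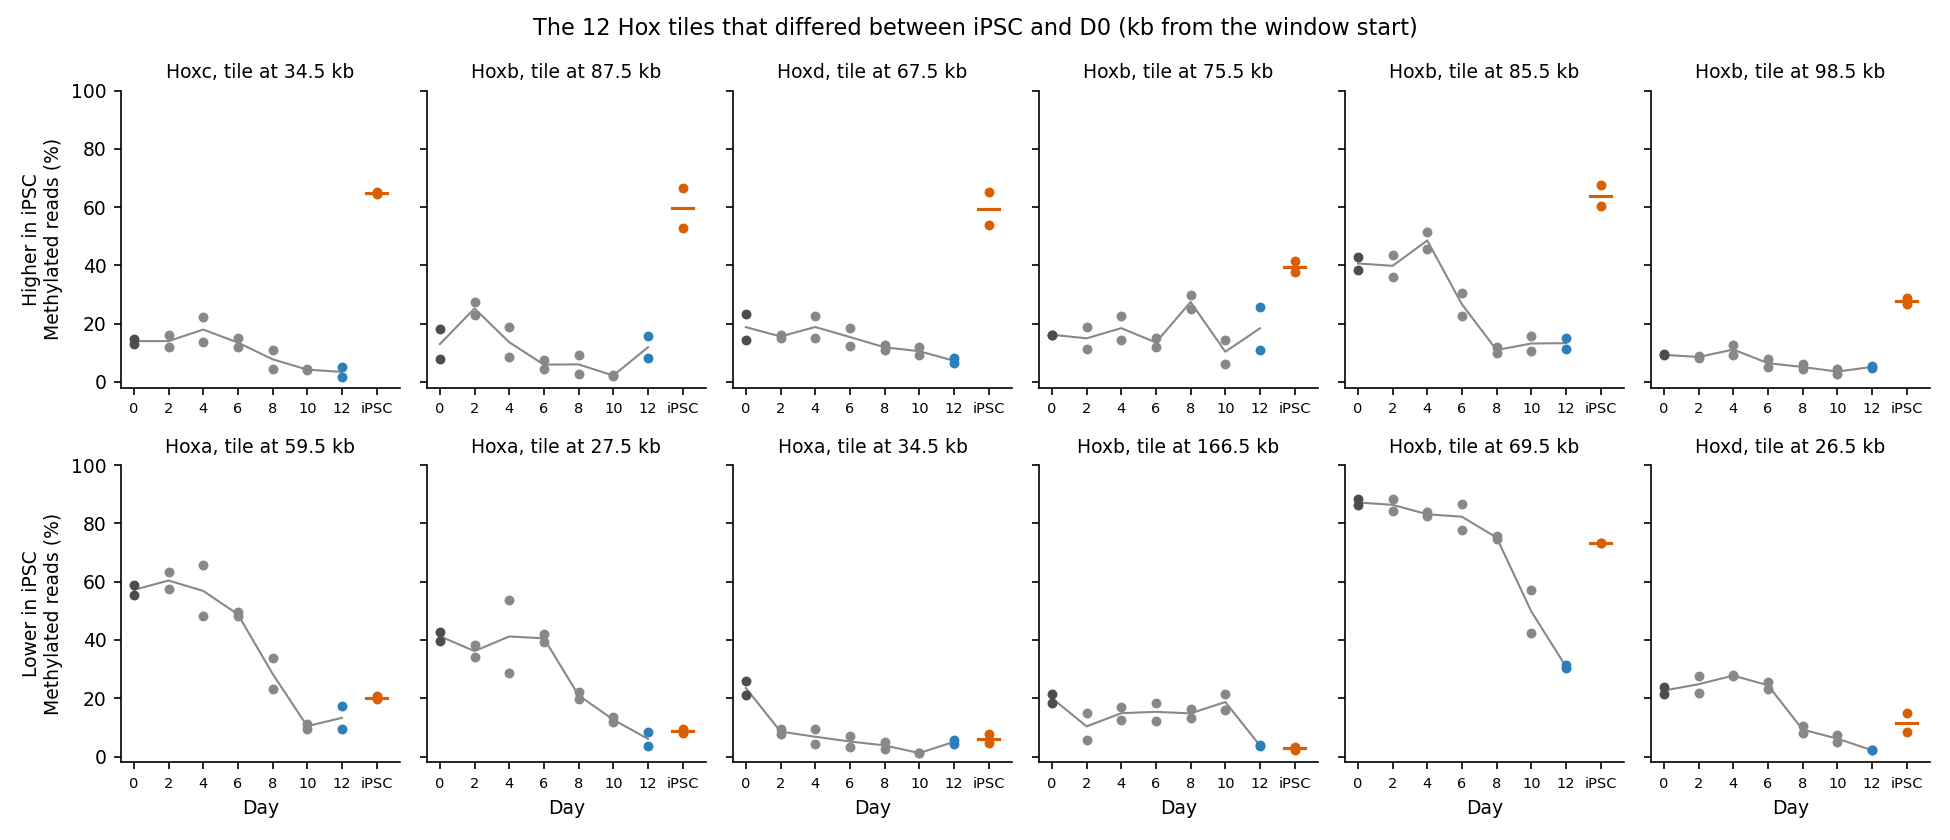
Methylation (%) of the 12 Hox tiles that differed between iPSC and D0, by day, with the 2 libraries of each group as points, a line through the means of D0 to D12 and a bar at the iPSC mean. Panel titles give the tile's centre in kb from the window start. The upper row shows the 6 tiles higher in iPSC than at D0, the lower row the 6 lower ones, of which only the Hoxb tile at 69.5 kb stands above 40% in iPSC.

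Hoxa held 3 of the 6 losses. Beside the 5730596B20Rik promoter, the tile by Hoxa5 stood at 20.6% and 19.8% in iPSCs, 37.0 ± 1.74 points under D0 (edgeR adjusted p = 0.00222), and 16 of its 18 sites were lower. The tile chr6:52147001-52148000, 6.64 kb upstream of the 5730596B20Rik start, was at 42.8% and 39.8% at D0, 22.2% and 19.8% at D8, 3.58% and 8.54% at D12, and 9.30% and 8.22% in iPSCs (edgeR adjusted p = 0.00243). All 16 of its sites were lower in iPSCs. None of these 3 Hoxa tiles differed between iPSC and D12 by the test (edgeR adjusted p = 0.596, 0.0972 and 0.238), with iPSC minus D12 at 1.11, 6.94 and 2.70 points. Hoxa had no tested tile at 40% or more in iPSCs. The untested tile directly before the tile by Hoxa5, with 1 common site, was at 60.8% at D0 and 56.2% in iPSCs. Another untested tile with 1 common site, starting at chr6:52169001, was at 23.5% at D0 and 47.9% in iPSCs.

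The losses outside Hoxa were of different sizes. The tile chr11:96236001-96237000 in Hoxb was at 21.6% and 18.5% at D0, 21.5% and 15.9% as late as D10, 3.66% and 3.82% at D12, and 3.32% and 2.25% in iPSCs (edgeR adjusted p = 0.00152). The tile highest at D0 with all member sites kept, chr11:96139001-96140000, was at 73.1% in both iPSC libraries, 14.0 ± 1.03 points under D0 (edgeR adjusted p = 0.0269). That call was lost in each fit with 1 library left out, with edgeR adjusted p from 0.0893 to 0.159, and with a minimum coverage of 20 (edgeR adjusted p = 0.330). The Hoxd tile chr2:74511001-74512000, 6.14 kb downstream of the Hoxd12 start, was at 23.7% and 21.6% at D0, 2.24% and 2.07% at D12, and 14.8% and 8.47% in iPSCs (edgeR adjusted p = 0.0320).

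In iPSCs, 16 tested Hox tiles were at 40% or more (12.2%, against 76.5% of all tiles). There were 12 at D0 (9.16%, against 78.0%), 15 at D4 (11.5%, against 76.5%) and 0 at D12 (against 4.42%). In iPSCs 7 of the 16 were in Hoxb, 5 in Hoxc and 4 in Hoxd. Hoxc had none at that level at D0. Besides the tile described, its others were chr15:102902001-102903000 (31.1% and 27.5% at D0, 49.4% and 46.0% in iPSCs), chr15:102911001-102912000 (17.6% and 25.4%, then 41.0% and 39.1%), chr15:102935001-102936000 (22.4% and 12.6%, then 47.9% and 40.8%) and chr15:102938001-102939000 (31.1% and 31.9%, then 51.1% and 48.5%). In each of these 4 both iPSC libraries lay above both D0 libraries, but none passed the test against D0, with edgeR adjusted p = 0.146, 0.150, 0.0601 and 0.463. All 4 were higher in iPSCs than at D12 by the test. The first 3 of them were singled out after their values were seen.

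In 2 tiles iPSCs were lower than D12. The Hoxc tile chr15:102875001-102876000 was at 10.3% and 0.899% at D0, 33.1% and 13.3% at D12, and 1.66% and 0.775% in iPSCs (edgeR adjusted p = 0.0385 against D12). The Hoxd tile chr2:74512001-74513000 was at 6.09% and 8.33% at D0, 8.33% and 22.8% at D12, and 2.68% and 2.31% in iPSCs (edgeR adjusted p = 0.0279). Neither was called against D0 at D12 (edgeR adjusted p = 0.160 and 0.218). Without D12 replicate 1 the first call was lost (edgeR adjusted p = 0.151), and without D12 replicate 2 the second (edgeR adjusted p = 0.168), as they were in both fits that left out an iPSC library.

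Agreement between the 2 libraries of a group over the Hox tiles was lowest at the end of the course. Over the 131 tiles Pearson's r was 0.921 at D0, 0.895 at D2, 0.887 at D4, 0.828 at D6, 0.732 at D8, 0.546 at D10, 0.449 at D12 and 0.946 for the iPSC pair. These are correlations across tiles, which are not independent replicates, and the range of levels narrows along the course. In 33 tiles the D12 libraries differed by more than 10 points, against 11 at D0 and 10 in iPSCs. Among tiles under 20% at D0, that was 27 of 98 Hox tiles at D12 (27.6%) and 21.9% of all such tiles. The tile chr6:52226001-52227000, 4.28 kb downstream of the Hoxa11os start and chosen after its values were seen, shows the range: its 4 sites, with 44 to 198 reads, were at 3.28% and 14.8% at D0, 65.5% and 19.7% at D6, 52.8% and 9.09% at D10, 44.4% and 24.5% at D12, and 20.0% and 0% in iPSCs. It was not called at D12 against D0 (edgeR adjusted p = 0.146).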

How the data were processed

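RRBS was measured in 16 libraries, 2 for each of 8 groups, grouped by the labels' day or cell type. The submitters' processing notes list the build GRCm39 and the tools methylKit, Bowtie2, Bismark 0.23.0 and fastp 0.20.1, with no roles given. Per the file headers, the deposited files give per cytosine the coverage as a count and the percent of reads with C and with T, as made by the authors. Methylated counts were the percent times the coverage, rounded. All listed sites had at least 10 reads.

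Sites common to all 16 libraries were summed into tiles of 1 kb, each strand's cytosine being a site, and tiles with at least 3 were tested with edgeR 4.0.16 (quasi-likelihood test on methylated and unmethylated counts, all groups in 1 fit, 8 residual degrees of freedom), with Benjamini-Hochberg adjustment over 94337 tiles. A call needed an adjusted p under 0.05 and a difference of group means of at least 10 points. Cluster levels were compared with exact permutation tests. The fit was also run on counts simulated with its own estimate of the spread. That run cannot show how the fit handles the spread between real libraries.

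Tiles named were the 5 largest changes in each direction of the 3 main comparisons, and the 2 highest and 1 lowest at D0 per cluster; others are said to be chosen after their values were seen. For iPSC against D0 all 12 called tiles are named, and the 2 outside the rule (chr11:96168001-96169000 and chr2:74511001-74512000) were added after their values were seen. The members and lists were chosen with earlier results of these data known, and promoters were placed after the files were opened. Alternatives were DNA strands merged, coverage and site minimums, another model, a replicate block, fits of 2 groups alone and single libraries left out. No expression was measured, so cell identity was not checked, and no gene annotation of GRCm39 was used here.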

Additional observations from a re-analysis of the deposited data

How the results depend on the processing

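Of 25 comparisons of named tiles, 204 of 217 values under other settings and 78 of 100 with 1 library left out kept their direction and their call; the others kept the direction and lost the call, and none reversed. The cause was not tested for any change below. Called Hox tiles (iPSC against D0 12, D12 against D0 33, iPSC against D12 37, D6 4, D8 21, D10 35) came to 5, 13, 17, 0, 6 and 12 with a minimum difference of 25 points. With a minimum coverage of 20, which leaves fewer tiles to test, iPSC against D12 gave 22, D8 12 and D10 23. The quasi-binomial model gave 17 for iPSC against D0, 1 at D4 and 11 at D6, and merged strands 2 at D6. With 1 library left out the counts ranged from 7 to 10, 28 to 38, 30 to 36, 0 to 2, 18 to 23 and 33 to 37 in the same order, and were 0 at D2 and D4.

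Cluster differences in points are given in the order Hoxa, Hoxb, Hoxc, Hoxd. With sites weighted equally, iPSC minus D0 was -2.87, 1.08, 1.38 and -0.927, D12 minus D0 -2.53, -5.72, -2.60 and -5.31, and iPSC minus D12 -0.345, 6.80, 3.98 and 4.38. With a minimum coverage of 20 they were -0.258, 3.57, 13.9 and -1.68, then -4.68, -10.9, -6.67 and -10.1, then 4.43, 14.4, 20.5 and 8.39. Merged strands gave 1.66 (Hoxb) and 8.86 (Hoxc) for iPSC minus D0, -2.93 (Hoxa), -7.43 (Hoxb) and -6.86 (Hoxd) for D12 minus D0, and 1.14, 9.09, 13.8 and 6.67 for iPSC minus D12. An alternative chosen after seeing the data left out the tile that moved each difference most: -0.127, 0.291, -0.484 and -1.99 for iPSC minus D0, -2.27 (Hoxa), -7.56 (Hoxb) and -6.73 (Hoxd) for D12 minus D0, and 0.832, 9.55, 4.43 and 5.76 for iPSC minus D12. With 1 library left out, iPSC minus D0 ranged from -2.01 to -0.745, 2.00 to 2.68, 9.31 to 10.8 and -0.842 to 0.00576.

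The replicate numbers share only a number: deviations of same-numbered libraries correlated between -0.0144 and 0.00778 over all tiles and between -0.220 and 0.352 over Hox tiles. With the replicate number as a block, the counts of called tiles were 12 for iPSC against D0, 32 for D12 against D0, 35 for iPSC against D12, 3 at D6, 21 at D8 and 35 at D10. Also chosen after seeing the data, leaving out sites at least 20 points under the other strand of their CpG (20 of 494 Hox CpGs read on both strands, 4.05%, against 24.8% of all) gave 13, 32 and 36 calls in the 3 main comparisons. Such a gap needs the other strand at 20% or more on the mean of all libraries. At D0, 71.3% to 78.5% of the member sites of a cluster were under 20%, against 36.4% of all common sites. The 4.05% and 24.8% were not compared at like levels. Depth limits single tiles: the median Hox tile had 420.5 reads in a library, and the gained Hoxb tile with 4 sites 65 to 205.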

Other observations

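The 38 Hox tiles with fewer than 3 common sites were not tested, and their 52 sites gave tile levels with a median of 18.4% in the D0 group, 16.3% in the D12 group and 18.0% in the iPSC group. The number of those tiles with a mean of 20% or more was 17 in the D0 group, 15 in the D12 group and 18 in the iPSC group.

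The share of tiles that were lower at D12 is given by the number of listed CpGs in the tile. Among tiles with 1 to 4 listed CpGs, 11 of 16 Hox tiles (68.8%) and 95.1% of all tiles were lower at D12 than at D0. With 5 to 9 these were 9 of 27 (33.3%) and 90.6%, with 10 to 19 they were 7 of 44 (15.9%) and 74.7%, and with 20 or more 6 of 44 (13.6%) and 28.4%. The difference between these classes was not tested, and starting levels differ between them.

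The Hoxb tile chr11:96177001-96178000, chosen after its values were seen, was at 4.66% and 4.06% at D0, 18.6% and 18.8% at D10 (edgeR adjusted p = 0.00189), 6.67% and 4.97% at D12, and 5.94% and 10.1% in iPSCs.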
